A study of Rattus norvegicus with 6 samples.

Results

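The mitochondrial tRNAs that read phenylalanine, valine and leucine UUR codons were described here, as mt-Phe-GAA, mt-Val-TAC and mt-Leu-TAA, in small RNA libraries labelled as rat muscle. Members were all distinct read sequences that aligned to the mature or precursor form of these 3 tRNAs and to no nuclear tRNA. There were 6589 such sequences of 77567 in all, with 84852 of 6277611 tRNA-aligned reads. mt-Val-TAC held 66401 of the reads, mt-Leu-TAA 15913 and mt-Phe-GAA 2538. The study compared 3 control with 3 experimental libraries (titled ctrl and exp) under a title on acute rejection of transplanted composite tissue. The labels give strain lewis, muscle and an age of 6 to 8 weeks for all 6 samples and do not say what the experimental samples received. A skin characteristic in the labels and the design text, which speaks of mouse skin, do not match muscle of rats, and which description is right could not be settled here. The groups rest on the titles. One strain is named for both groups, yet they differed in the mitochondrial sequence read here, so strain of origin and treatment cannot be told apart. It is not stated that each library had its own animal, and the p-values here therefore speak only to spread among libraries, part of which may be technical. The files hold tRNA-aligned reads only, so muscle markers could not be looked at. The libraries held 316990 to 1927269 tRNA-aligned reads, and the deepest 3 were all experimental.

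Mammalian mitochondrial DNA is transcribed into long RNAs in which tRNAs punctuate the rRNAs and mRNAs. RNase P cuts at the 5′ end of each tRNA and ELAC2 at its 3′ end, and these cuts also set the ends of the neighbouring RNAs. mt-Phe, 12S rRNA, mt-Val, 16S rRNA, mt-Leu and the ND1 mRNA follow one another in that order. TRNT1 then adds CCA, the site of the amino acid, to the tRNA 3′ end, and mt-Val is also known as a structural part of the mitochondrial ribosome. Muscle depends on these RNAs for its respiratory chain.

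In the coordinates of the files, mt-Phe-GAA lies at chrM:1-67, mt-Val-TAC at chrM:1026-1093 and mt-Leu-TAA at chrM:2665-2739. The submitters' processing notes name the mouse build mm9, and whether these coordinates are of that build was not tested. The mature sequences below carry CCA at the 3′ end, with the anticodon in capitals. They show which bases the fragments named later come from.
mt-Phe-GAA: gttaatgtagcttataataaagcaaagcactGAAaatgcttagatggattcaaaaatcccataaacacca
mt-Val-TAC: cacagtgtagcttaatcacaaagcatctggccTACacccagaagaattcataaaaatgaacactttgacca
mt-Leu-TAA: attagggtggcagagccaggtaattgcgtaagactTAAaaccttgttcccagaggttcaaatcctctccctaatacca

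The region around mt-Val-TAC, chrM:986-1133, is given with the tRNA in capitals, because most flank reads fell there. The 12S rRNA 3′ end lies to its left and the 16S rRNA 5′ end to its right.
mt-Val-TAC region: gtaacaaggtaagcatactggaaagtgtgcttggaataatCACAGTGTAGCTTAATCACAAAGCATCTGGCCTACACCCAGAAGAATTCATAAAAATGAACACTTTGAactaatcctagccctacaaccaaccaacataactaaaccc

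Positions count from 1 at the first base of the mature tRNA, with no 0, and leader bases are negative. The encoded tRNAs are 67, 68 and 75 bases long for mt-Phe-GAA, mt-Val-TAC and mt-Leu-TAA. A fragment is named by its first and last position and by a substitution where it has one, with the reference base first (T74C has C where the file's reference has T). mt-Phe-GAA begins at the first base of the chromosome in the files and so has no 5′ flank there. A read was classed as mature, as flank (wholly outside the tRNA) or as junction (across an end of the tRNA). Reads on the mature form numbered 53053, flank reads 29629 and junction reads 2170. Reads ran from 14 to 40 nt and the deposited alignments allow at most 1 mismatch.

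The 16S rRNA 5′ end, which abuts mt-Val-TAC, gave the largest difference among the 3 tRNAs and their flanks. Nearly all control reads there carried T74C, the sixth base of the rRNA (chrM position 1099), and most experimental reads did not. T74C was in 99.5%, 99.5% and 99.4% of reads over that position in the control libraries. It was in 9.56% (95% Wilson interval 8.66 to 10.5), 24.9% (22.8 to 27.1) and 17.1% (16.1 to 18.1) in the experimental libraries. The groups did not overlap, and reads of both kinds were found in every library. The mean was 99.5% ± 0.0901 (SD, n = 3) in control and 17.2% ± 7.67 (SD, n = 3) in experimental libraries (exact permutation p = 0.1, the smallest that 3 against 3 libraries allow). Adjusted over the 312 positions with enough reads the p was 1. T74C at this place was known from earlier results on these data, so the value is a description. These Wilson intervals, and floors given later, account for counting error alone, because reads copied by PCR are not separate molecules. T74C reads with a second difference are not in the files, while reads without T74C may hold 1 other mismatch. The shares of T74C above are therefore understated. Among reads from position 69 with no other mismatch, T74C was in 13.5%, 32.6% and 22.7% in experimental libraries, above the interval of each library.

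The 2 forms, from the first base of the rRNA to position 89, are shown with position 74 in capitals.
69 to 89 with T74C: actaaCcctagccctacaacc
69 to 89 without: actaaTcctagccctacaacc

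Counted as levels, reads from position 69 with T74C and no other mismatch stood at 6444, 13195 and 7821 reads per 1000000 (CPM, scaled by trimmed mean of M values) in the control libraries and at 311, 374 and 527 CPM in the experimental libraries. Reads from position 69 without a mismatch stood at 9.68, 7.80 and 2.80 CPM in control and at 2003, 775 and 1794 CPM in experimental libraries. Of the reads of both forms, T74C made up 99.85%, 99.94% and 99.96% in control and 13.5%, 32.6% and 22.7% in experimental libraries. Neither form overlapped between groups, and the gain of the reference form did not make up for the loss of the T74C form in the sum. The 2 forms are plotted by library beside the T74C share.

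**Figure D1:**
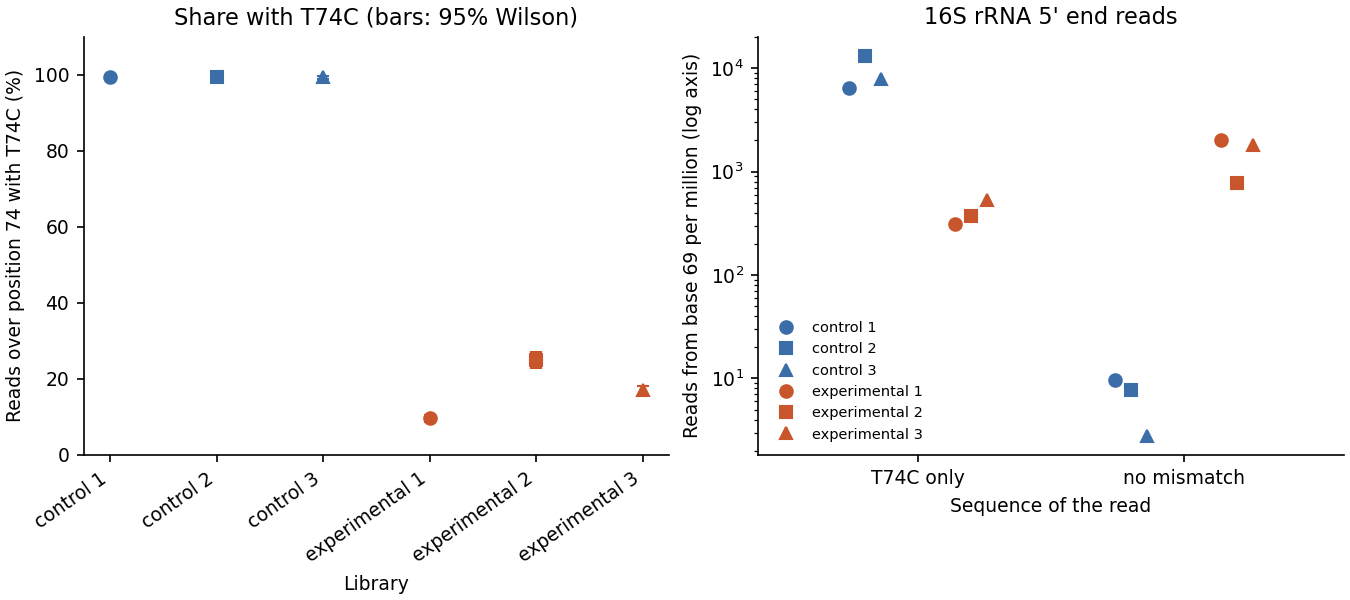
Left, percent of reads over position 74 with T74C in each library, with 95% Wilson intervals. Right, reads that begin at position 69 in CPM on a log axis, with T74C alone or with no mismatch, 1 point a library. The 3 control libraries sit near 99.5% and the experimental libraries between 9.56% and 24.9%.

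A further position in the same flank also differed, and it limits what can be compared there. Among reads that begin beyond position 74 and reach 106, A105C (chrM position 1130) was in 10 of 10, 20 of 20 and 5 of 5 reads in the control libraries. In the experimental libraries it was in 1 of 7, 0 of 1 and 0 of 3 reads. A count of 0 in 3 or 1 reads puts no useful limit on the share. A read with both T74C and A105C has 2 differences from the reference and is not in the files, so long control reads of the 16S rRNA 5′ end are missing from the counts. Reads over both positions numbered 4, 3 and 1 in control and 255, 176 and 480 in experimental libraries. A read that shows A105C is given here with that base in capitals.
83 to 106 with A105C: tacaaccaaccaacataactaaCc

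Position 105 had too few reads for the comparison of all positions. Of the 312 positions tested (79 for mt-Phe-GAA, 126 for mt-Val-TAC and 107 for mt-Leu-TAA), 33 lie from 71 to 104 in the mt-Val-TAC 3′ flank beside T74C. Nearly all control reads there carry T74C, and a second difference takes them out of the files. A further difference between the groups could not be seen at these 33 positions, and the 12 of them without overlap (mismatches near 0% in control) are not a comparison of the groups. At the other 278 positions the groups carried the same bases to within 4.92 percentage points in the pooled reads, the largest difference being A20G of mt-Phe-GAA, and 15 had groups that did not overlap. A20G had 61 experimental reads over it, and its groups overlapped. C69A of mt-Val-TAC, at the first base of CCA, was in 4.89%, 5.15% and 4.77% of reads in control libraries. It was in 0.758%, 0.481% and 0.861% in experimental libraries, without overlap (exact permutation p = 0.1). Position 9, a purine that TRMT10C methylates in most mitochondrial tRNAs, was misread more in mt-Leu-TAA of experimental libraries. A mismatch there was in 0%, 1.52% and 0% of 54, 330 and 169 reads in control and in 8.79%, 4.67% and 4.74% of 478, 107 and 211 reads in experimental libraries. The groups did not overlap (exact permutation p = 0.1, chosen after the values were seen). mt-Phe-GAA and mt-Val-TAC had at most 27 reads over position 9 in a library.

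The share of each tRNA and class of read gives the size of these signals. The 3 tRNAs and their flanks took 1.15%, 2.89% and 2.45% of tRNA-aligned reads in control libraries and 1.94%, 0.386% and 1.33% in experimental libraries. The groups overlapped, with experimental replicate 2 lowest (2.16% ± 0.907 against 1.22% ± 0.782, SD, n = 3; exact permutation p = 0.3). In bulk tissue, fewer cells of a type and less RNA per cell cannot be told apart. Within the member reads mt-Val-TAC took 82.9% ± 2.73 in control and 73.7% ± 5.98 in experimental libraries, and mt-Leu-TAA 14.0% ± 3.79 and 23.0% ± 5.81 (SD, n = 3; exact permutation p = 0.2, adjusted 0.3 for both). mt-Phe-GAA took 3.10% ± 1.14 and 3.30% ± 0.761 (exact permutation p = 0.8, adjusted over the 3 tRNAs 0.8). None of the 3 shares differed beyond the spread between libraries.

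Flank reads took a larger part of the member reads in control libraries. Their share was 58.3%, 51.7% and 38.3% in control and 24.9%, 24.9% and 23.4% in experimental libraries. The groups did not overlap (49.4% ± 10.2 against 24.4% ± 0.887, SD, n = 3; exact permutation p = 0.1). With exact matches alone the difference reversed to 13.3 percentage points higher in experimental libraries, since T74C reads are then left out. The mt-Val-TAC 3′ flank alone took 53.4%, 48.2% and 36.5% of member reads in control and 22.4%, 21.2% and 20.9% in experimental libraries. Without it, flank reads took 6.63% ± 3.79 in control and 3.67% ± 0.898 in experimental libraries (SD, n = 3), with overlap between groups (exact permutation p = 0.4). The difference in flank share thus lay in the 16S rRNA 5′ end. Junction reads took 2.86% ± 0.412 and 2.42% ± 0.478 of member reads (SD, n = 3; exact permutation p = 0.3).

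Class sums were also compared in a limma voom fit over 148 sums of all nuclear and mitochondrial tRNAs, of which 2.7% were called higher and 6.08% lower at an adjusted p under 0.05. Of the 9 member sums with enough reads, 0 were called higher and 1 lower. The sums of mature reads did not differ between groups beyond the spread between libraries, which was wide. mt-Val-TAC mature reads stood at 3782, 8062 and 6737 CPM in control and 5898, 2999 and 9262 CPM in experimental libraries (fitted log2 difference −0.11, SE 0.71, limma voom adjusted p = 0.986). mt-Leu-TAA mature reads stood at 1307, 3191 and 2848 CPM and at 3963, 1380 and 2784 CPM (0.12 ± 0.73, adjusted p = 0.986). mt-Phe-GAA mature reads stood at 111, 276 and 230 CPM and at 313, 120 and 278 CPM (0.17 ± 0.69, adjusted p = 0.979). The groups overlapped for all 3 tRNAs, and control replicate 1 and experimental replicate 2 were the lowest of their groups in each. By levels per library, over 6 libraries, the other mitochondrial tRNAs closest to mt-Leu-TAA were mt-Arg-TCG (mean absolute difference of centred log2 CPM 0.12), mt-Cys-GCA (0.22) and mt-Trp-TCA (0.26), against a median of 0.44 for all others. For mt-Val-TAC they were mt-Gly-TCC (0.22), mt-Trp-TCA (0.24) and mt-Thr-TGT (0.26), and for mt-Phe-GAA mt-Ser-TGA (0.25), mt-Tyr-GTA (0.30) and mt-Trp-TCA (0.35).

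**Figure D2:**
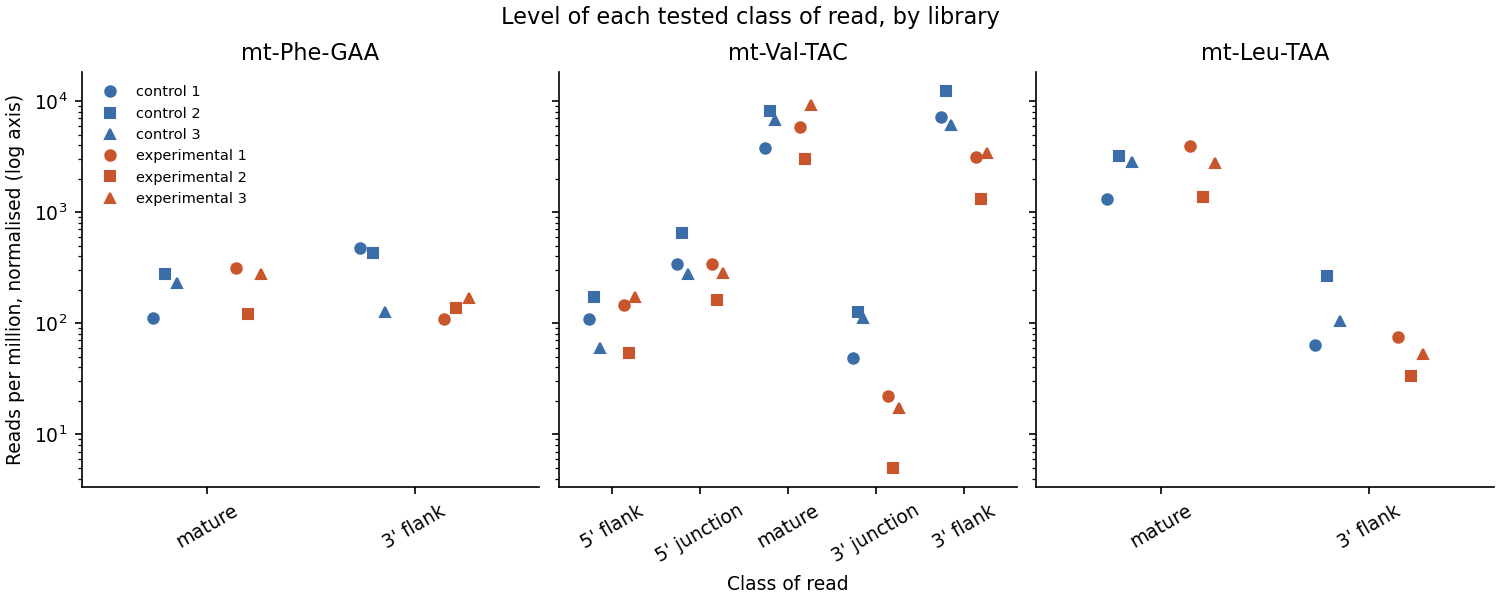
Normalised CPM on a log axis for each class of read with enough reads, 1 point a library, for the 3 tRNAs. mt-Val-TAC 3′ flank and 3′ junction reads do not overlap between groups, and the mature reads of all 3 tRNAs do.

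The mt-Val-TAC 3′ flank stood at 7185, 12301 and 6037 CPM in control and 3146, 1320 and 3442 CPM in experimental libraries. The groups did not overlap, but the sum was not called (fitted log2 difference −1.75, SE 0.72, limma voom adjusted p = 0.119). The mt-Val-TAC 3′ junction was the one member sum called, at 48.95, 127 and 111 CPM in control and 22.3, 5.01 and 17.2 CPM in experimental libraries (−2.78 ± 0.74, limma voom adjusted p = 0.00502). It was no longer called without control replicate 2 (adjusted p = 0.112), without experimental replicate 2 (0.0579), nor when each sum's own spread was used (0.289). These were 182 reads in control and 59 in experimental libraries, and few of them spanned the cleavage site far. Reads with at least 5 bases on each side numbered 6, 28 and 2 in control and 10, 3 and 10 in experimental libraries. Reads that end at 70 with C70A, and so read as the tRNA followed by AA, numbered 6, 22 and 23 in control and 1 in each experimental library. Reads with T71C that end at 71 or 72, which read as tRNA with 1 further encoded A before CC or CCA, numbered 7, 28 and 14 in control and 7, 0 and 4 in experimental libraries.

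Cleavage on the 3′ side of mt-Val-TAC was sharp in both groups. Of its 3′ flank reads, 99.1%, 98.7% and 99.3% in control and 98.6%, 99.0% and 98.7% in experimental libraries began exactly at position 69, the base after the tRNA. The groups overlapped (exact permutation p = 0.3, adjusted over 4 flanks 0.4). Each flank held 40 bases, so a read that begins further in had to be shorter to be seen. Shares of reads that begin at the first bases may thus be overstated, here and in the other 3′ flanks. The plot of reads across the region shows the step at this base. Read ends fell mainly at 89 and 90. With T74C, 31.0%, 28.8% and 28.6% of control reads and 33.1%, 25.8% and 31.4% of experimental reads ended at 89, with overlap (exact permutation p = 0.9). Ends at 90 took 29.1%, 25.7% and 29.9% of T74C reads in control and 16.9%, 9.02% and 18.3% in experimental libraries, without overlap (exact permutation p = 0.1). Reads without a mismatch ended at 89 in 46.7%, 39.8% and 41.2% of cases in experimental libraries, above every T74C value, and at 90 in 17.5%, 13.3% and 15.6%. They were too few in control libraries (5, 6 and 1) to give shares. In experimental libraries 6.22%, 12.1% and 9.72% of reads without a mismatch ran to 107 or 108, where T74C reads could not be compared because of A105C. A read from 69 to 108 has 40 nt, the longest length seen, and 108 is the last base of the region. Ends there thus cannot be told from longer RNAs.

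**Figure D3:**
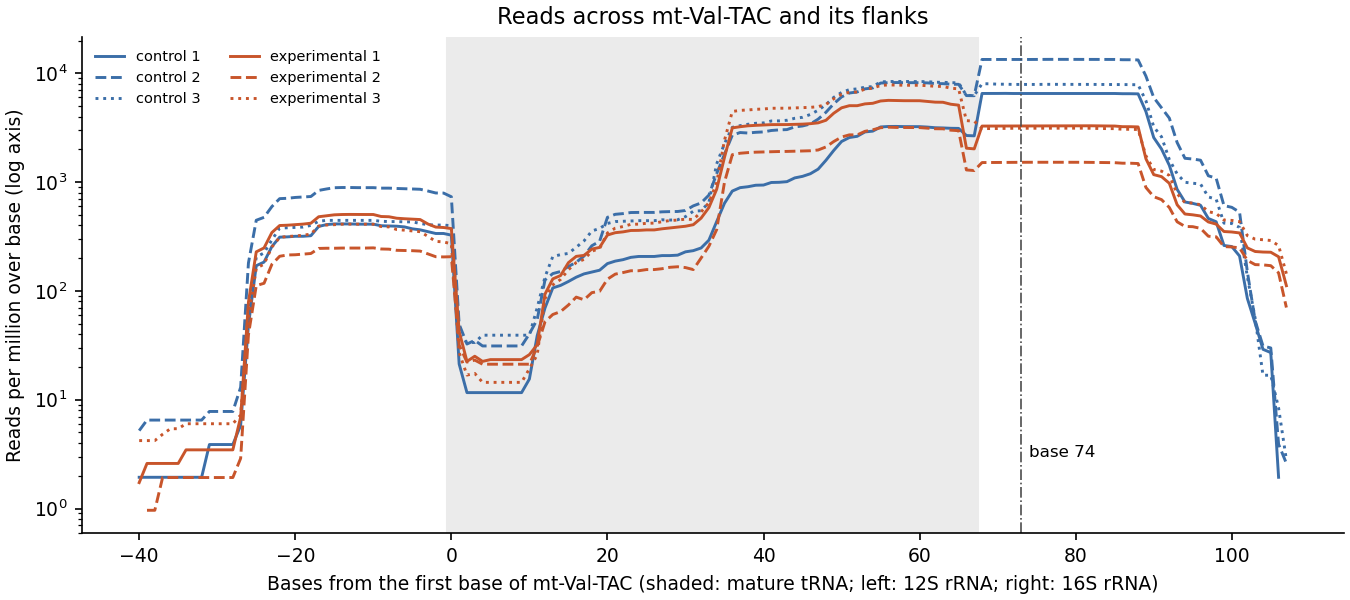
CPM over each base of mt-Val-TAC (shaded), the 12S rRNA 3′ end (left) and the 16S rRNA 5′ end (right), on a log axis, 1 line a library. Control lines lie above experimental lines across the first bases of 16S rRNA, around position 74, and drop near base 105.

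The 12S rRNA 3′ end, on the 5′ side of mt-Val-TAC, carried 1 further A in most reads of both groups that the files hold. Mitochondrial 12S rRNA is known to be oligoadenylated. The reads were classed as 5′ junction reads because the base after position −1 was read as A where the tRNA starts with C (C1A). C1A reads numbered 162, 540 and 130 in control and 403, 188 and 421 in experimental libraries, and 5′ junction reads that match the reference numbered 0, 2, 0, 0, 2 and 2 in the same order. Reads that stop at position −1 numbered 12, 67 and 13 in control and 31, 19 and 40 in experimental libraries. Reads with the further A thus made up 93.1%, 88.96% and 90.9% in control and 92.9%, 90.8% and 91.3% in experimental libraries, and the groups overlapped (exact permutation p = 0.7). A tail longer than AA differs from the tRNA start (CAC) at 2 or more bases, so longer tails are not in the files. Of C1A reads, 96.91%, 97.04% and 97.69% in control and 93.55%, 94.68% and 95.01% in experimental libraries ended at position 1. Those groups did not overlap (exact permutation p = 0.1, chosen after the values were seen). The rest ran past position 1, where an added A cannot be told from the A of the tRNA. The most abundant C1A read is given with the added A in capitals.
-25 to 1 with C1A: tactggaaagtgtgcttggaataatA

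That fragment stood at 96.8, 208 and 123 CPM in control and at 106, 57.8 and 69.8 CPM in experimental libraries, with overlap (fitted log2 difference −0.85, SE 0.89, limma voom adjusted p = 0.505). Of the 5′ flank reads of mt-Val-TAC, 23.5%, 46.2% and 46.4% in control and 17.7%, 29.7% and 15.3% in experimental libraries ended exactly at position −1 (exact permutation p = 0.2, adjusted 0.4). These flank reads numbered 51, 145 and 28 in control and 175, 64 and 262 in experimental libraries. C1A reads also reach the rRNA end but are classed as junction reads, so these shares leave them out. They outnumbered the flank reads in every library. The shares thus do not tell how many reads stop short of the rRNA end.

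The 12S rRNA 5′ end, beyond mt-Phe-GAA, was read mainly from position 69, which leaves base 68 between the tRNA and the read. Reads from position 69 made up 93.3%, 84.1% and 93.2% of the flank in control and 72.7%, 93.9% and 84.3% in experimental libraries, with overlap (exact permutation p = 0.7). Only 1.11% in control replicate 2, and 0% in the other 5 libraries, began at 68. The most abundant flank read is shown because it marks this start.
mt-Phe-GAA 69 to 86: aaaggtttggtcctggcc

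It stood at 105, 139 and 30.8 CPM in control and at 37.2, 45.3 and 45.7 CPM in experimental libraries, with control replicate 3 below all experimental libraries (fitted log2 difference −0.88, SE 0.89, limma voom adjusted p = 0.496). The whole flank stood at 477, 427 and 126 CPM in control and 109, 137 and 169 CPM in experimental libraries (−1.11 ± 0.67, limma voom adjusted p = 0.352). Behind mt-Leu-TAA, at the start of ND1 mRNA, 66.7%, 57.8% and 67.3% of flank reads in control and 40.2%, 27.5% and 45.0% in experimental libraries began exactly at position 76. The groups did not overlap (64.0% ± 5.30 against 37.6% ± 9.04, SD, n = 3; exact permutation p = 0.1, adjusted over 4 flanks 0.4). Few reads stand behind these shares, 30, 223 and 49 in control and 92, 40 and 80 in experimental libraries. This flank stood at 63.8, 265 and 104 CPM in control and 76, 33.4 and 53.0 CPM in experimental libraries, with overlap (−1.25 ± 0.68, limma voom adjusted p = 0.273).

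Few reads spanned a cleavage site of any of the 3 tRNAs. Reads with at least 5 bases on each side of the junction numbered 1, 2 and 0 in control and 3, 0 and 0 in experimental libraries at the 3′ end of mt-Leu-TAA. At its 5′ end they numbered 1, 8 and 1 and then 2, 0 and 2. At the 5′ end of mt-Val-TAC there was 1 in control replicate 2 and 1 in experimental replicate 2, and at the 3′ end of mt-Phe-GAA there were 2, both in experimental replicate 3. Precursors longer than 40 nt were not measured.

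At the 3′ end of the tRNAs themselves, mt-Leu-TAA fragments with the whole CCA were less frequent in experimental libraries, and mt-Phe-GAA fragments were not. Among mt-Leu-TAA reads that reach the last 3 encoded bases or beyond, 72.3%, 70.5% and 80.3% ended in CCA in control libraries and 23.8%, 25.9% and 8.61% in experimental libraries. The groups did not overlap (74.4% ± 5.22 against 19.4% ± 9.44, SD, n = 3; exact permutation p = 0.1, adjusted over the 3 tRNAs 0.15). These shares rest on 282, 1250 and 508 reads in control and 1690, 715 and 1696 in experimental libraries. For mt-Phe-GAA the share was 85.4%, 71.2% and 77.97% in control and 77.3%, 81.1% and 72.5% in experimental libraries. Those groups overlapped (difference −1.18 percentage points, exact permutation p = 0.9, adjusted 0.9), on 41 to 313 reads a library. For mt-Val-TAC, which ended short of CCA in most reads of either group, it was 12.4%, 15.2% and 12.9% in control and 7.93%, 6.05% and 4.15% in experimental libraries, without overlap (exact permutation p = 0.1, adjusted 0.15).

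mt-Leu-TAA reads of experimental libraries ended more often after CC and at the bare encoded end. Ends at 77 (CC) took 9.77%, 5.52% and 5.24% of mature mt-Leu-TAA reads in control and 20.4%, 27.01% and 15.3% in experimental libraries. Ends at 78 (CCA) took 33.9%, 39.4% and 31.3% in control and 9.53%, 11.99% and 3.805% in experimental libraries. Ends at 75, the bare encoded end, took 1.30%, 1.23% and 0.972% in control and 4.02%, 3.09% and 18.6% in experimental libraries. None of the 3 ends overlapped between groups, and in experimental replicate 3 ends at 75 outnumbered ends at 77. Reads were at most 40 nt, so an mt-Leu-TAA fragment with CCA had to begin at 39 or later to be seen. Among fragments that begin at 42 or later, where every end is within that length, the CCA share was 77.1%, 72.6% and 79.9% in control and 27.7%, 27.8% and 10.7% in experimental libraries.

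The same share was taken over the other mitochondrial tRNAs for comparison. With all of them together it was 82.7%, 71.97% and 79.4% in control and 65.2%, 61.5% and 51.9% in experimental libraries, so a lower CCA share was not particular to mt-Leu-TAA. Of 16 others with at least 30 such reads in every library, 10 were lower without overlap and 0 higher, with a median difference of −15.3 and a range of −34.2 to 2.05 percentage points. In percentage points mt-Leu-TAA differed by more than each of the 16. The fall of −34.2 points was that of mt-Gln-TTG, from a mean of 36.9% in control to 2.72% in experimental libraries. A fall as large as that of mt-Leu-TAA was not possible from that start. The mt-Leu-TAA share less that of the others together was −10.4, −1.49 and 0.891 points in control and −41.3, −35.6 and −43.3 points in experimental libraries, without overlap (exact permutation p = 0.1). mt-Phe-GAA stood above the others in experimental libraries, with 2.63, −0.803 and −1.46 points in control and 12.1, 19.6 and 20.6 points in experimental libraries (exact permutation p = 0.1).

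**Figure D4:**
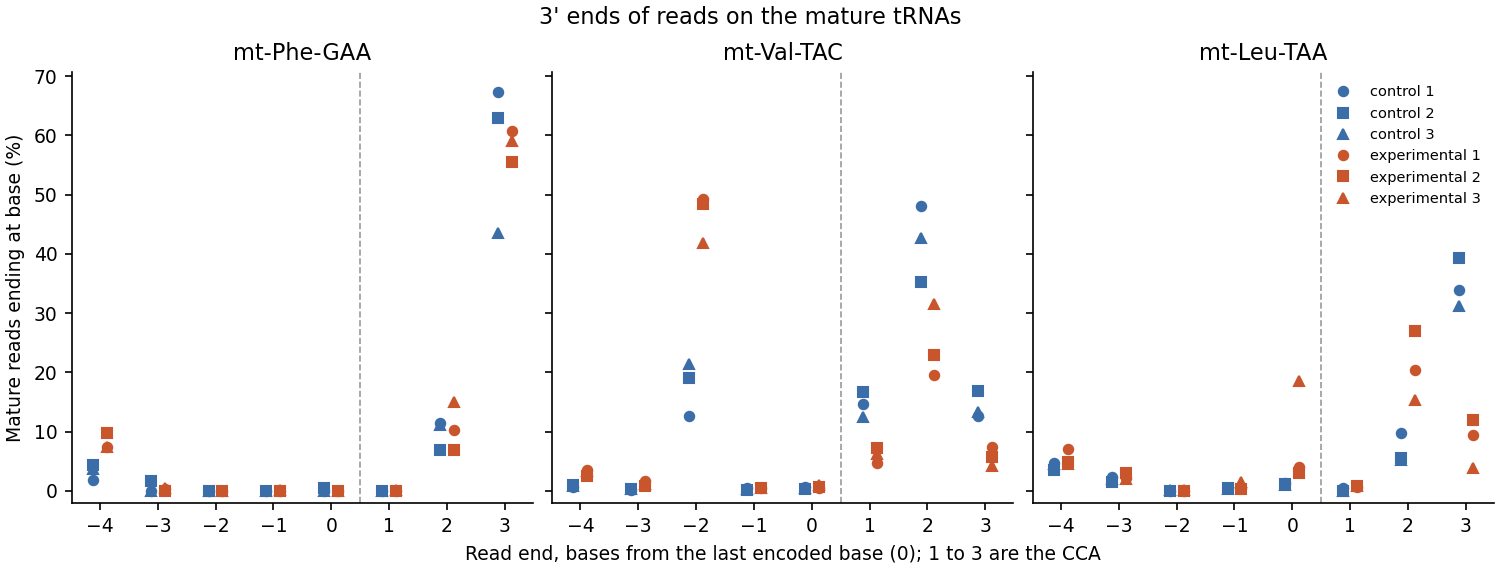
Percent of mature reads of each tRNA that end at a given base, with 0 the last encoded base and 1 to 3 the added CCA, 1 point a library. mt-Leu-TAA ends are fewer at 3 and more frequent at 2 and 0 in experimental libraries, mt-Val-TAC ends rise at −2, and mt-Phe-GAA ends overlap at 3.

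mt-Val-TAC reads ended 2 bases before the encoded end more often in experimental libraries. Ends at 66 took 12.7%, 19.1% and 21.5% of mature mt-Val-TAC reads in control and 49.3%, 48.4% and 41.9% in experimental libraries. Ends at 70 took 48.1%, 35.3% and 42.6% in control and 19.6%, 23.0% and 31.5% in experimental libraries, and neither end overlapped. Of the reads that end at 70, 22.6%, 26.8% and 39.5% in control and 10.2%, 7.38% and 7.77% in experimental libraries carried C70A, so that they end in CA in place of CC. Starts moved as well. Reads that start at 37, in the anticodon loop just after the anticodon (33 to 35), took 5.40%, 10.1% and 10.2% in control and 23.8%, 22.8% and 24.2% in experimental libraries. Reads that start at 36 took 5.91%, 6.89% and 8.95% in control and 13.4%, 18.4% and 17.1% in experimental libraries. Neither start overlapped between groups. For mt-Leu-TAA, starts at 39 to 41, just after the anticodon (36 to 38), took 27.4%, 24.8% and 17.7% in control and 8.07%, 9.63% and 8.18% in experimental libraries. Starts at 27 took 3.58%, 4.89% and 4.71% in control and 11.1%, 7.75% and 11.9% in experimental libraries, so the 2 sites moved in opposite directions and neither overlapped. These starts and ends were chosen after their values were seen and have exact permutation p = 0.1 each.

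Single fragments were fitted with limma voom over all 2226 sequences with enough reads, of which 18.7% were called higher and 7.64% lower in experimental libraries. Of the 6589 members 163 had enough reads, and of these 10 were higher and 35 lower, with a median log2 fold change of −0.82 against 0.21 over all fragments (0.01 with median of ratios scaling and −0.07 with library totals). All 10 higher were reads of the 16S rRNA 5′ end over position 74 without T74C (10 of 11 tested), and 16 of 18 tested with T74C were lower. Of the 10, 3 carry another mismatch and 2 reach past 105, so that control reads of those kinds are mostly not in the files and their rise is no comparison of the groups. The other 5, with no mismatch, end before 105. Of the other 134 members, 0 were higher and 19 lower. Groups did not overlap in 20 members that were higher and 50 that were lower, against 26.1% and 14.6% of all fragments. limma pooled the spread fully over fragments here, and with each fragment's own spread 7 members were higher and 4 lower, against 0.674% and 0.359% of all fragments. The 7 include 69 to 89 with C89T or C89A, 69 to 107 and 69 to 108. The other mitochondrial tRNAs had 49 fragments higher and 100 lower of 624, with a median of −0.51.

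**Figure D5:**
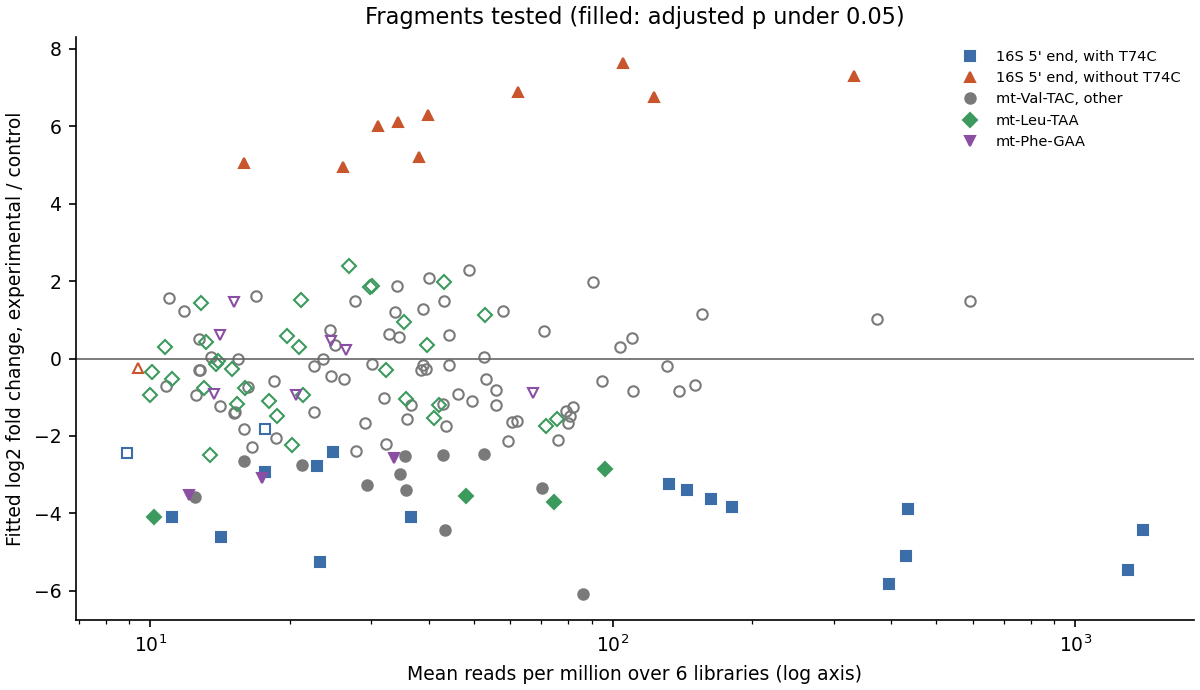
Fitted log2 fold change (experimental over control) of the 163 members tested against their mean CPM over 6 libraries on a log axis, with filled points for adjusted p under 0.05. Filled points above 0 are all reads of the 16S rRNA 5′ end without T74C, and those below 0 include the T74C reads at the highest levels.

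Fragments of the 16S rRNA 5′ end held the largest rises and most of the largest falls. The fragment from 69 to 89 with T74C stood at 1996, 3805 and 2235 CPM in control and 103, 96.3 and 165 CPM in experimental libraries (fitted log2 difference −4.44, SE 0.88, limma voom adjusted p = 1.53e-05). The same fragment without T74C stood at 7.75, 3.90 and 0 CPM in control and 935, 308 and 738 CPM in experimental libraries (7.29 ± 0.99, limma voom adjusted p = 4.43e-11, and 0.0587 when its own spread was used). From 69 to 90, T74C reads stood at 1874, 3394 and 2341 CPM in control and 52.8, 33.7 and 96.2 CPM in experimental libraries (−5.46 ± 0.89, adjusted p = 6.70e-08). The fragment from 69 to 93 without T74C had 0 reads in control and stood at 158, 57.8 and 159 CPM in experimental libraries. With the control group put at a floor of 3 counts in all, it was at least 68.5-fold higher. With T74C, the fragment from 69 to 93 stood at 560, 1509 and 400 CPM in control and 42.4, 35.6 and 67.4 CPM in experimental libraries. The fold thus holds for the form without T74C and not for both forms together. The fragment from 69 to 89 with C89T, a mismatch at the last base, stood at 313, 101 and 216 CPM in experimental libraries and with C89A at 112, 47.2 and 80.0 CPM. Both had 0 reads in control, where T74C with either would be 2 differences and so not in the files, and no fold is given. Likewise the fragments from 69 to 108 (68.3, 45.3 and 92.01 CPM) and from 69 to 107 (56.2, 48.2 and 82.4 CPM) had 0 reads in control, where T74C and A105C take reads of these lengths out of the files. Of T74C reads, the fragments ending at 91, 92, 101 and 104 were also among the 6 largest falls, with log2 fold changes from −5.83 to −4.62. Those ending at 91, 101 and 104 were not called when their own spread was used (adjusted p = 0.0527, 0.0675 and 0.0680).

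On the mature tRNAs, called fragments ended at or near CCA, except mt-Leu-TAA 32 to 71 with T71A. The mt-Leu-TAA fragment from 39 to 78, the most abundant of that tRNA, stood at 94.9, 173 and 235 CPM in control and 43.3, 21.2 and 10.8 CPM in experimental libraries, without overlap (fitted log2 difference −2.86, SE 0.90, limma voom adjusted p = 0.00914). It was not called without experimental replicate 3 (adjusted p = 0.1002), nor when its own spread was used (0.115). Fragments 40 to 78 and 41 to 78 also fell (−3.71 and −3.54), so 3 of the 7 tested mt-Leu-TAA fragments that end at 78 were lower. The 8 tested that end at 77 had a median of 1.68 and 0 called, and 5 of them lay higher without overlap. The pair below differs by the last A alone and shows the change of end, with added bases in capitals.
mt-Leu-TAA 43 to 78: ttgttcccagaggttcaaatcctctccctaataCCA
mt-Leu-TAA 43 to 77: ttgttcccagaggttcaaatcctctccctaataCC

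The fragment to 78 stood at 36.8, 151 and 157 CPM in control and 59.7, 34.7 and 16.2 CPM in experimental libraries, with overlap (limma voom adjusted p = 0.187). The fragment to 77 stood at 5.81, 26.0 and 22.4 CPM in control and 94.3, 58.8 and 51.1 CPM in experimental libraries, without overlap but not called (1.99 ± 0.95, limma voom adjusted p = 0.105). Both were chosen after their values were seen.

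For mt-Val-TAC, 12 of 81 mature fragments tested were lower and 0 higher. Of the 12, 9 ended at 70, 2 at 69 and 1 at 71, and 6 of the 10 tested with C70A were among them. The fragment from 35 to 70 with C70A stood at 54.2, 156 and 299 CPM in control and 2.60, 0 and 5.41 CPM in experimental libraries, without overlap (−6.08 ± 0.99, limma voom adjusted p = 6.81e-08, and 0.0986 when its own spread was used). This was the largest fall of the 163 members tested. With CC at its end the same fragment stood at 27.1, 48.1 and 78.3 CPM in control and 3.46, 8.67 and 28.3 CPM in experimental libraries, with overlap (−2.21 ± 0.94, adjusted p = 0.0652). The most abundant mature fragment ran from 37 to 66 and stood at 79.4, 447 and 568 CPM in control and 923, 445 and 1090 CPM in experimental libraries, with overlap (1.49 ± 0.88, adjusted p = 0.205). None of the 15 tested fragments that end at 66 was called, and their median was 1.01. These 2 fragments are shown with added or differing bases in capitals.
mt-Val-TAC 35 to 70 with C70A: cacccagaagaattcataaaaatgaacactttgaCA
mt-Val-TAC 37 to 66: cccagaagaattcataaaaatgaacacttt

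For mt-Phe-GAA, 0 of 4 mature fragments were called. Its most abundant, from 55 to 70 with the whole CCA, stood at 11.6, 22.1 and 41.96 CPM in control and 36.3, 14.4 and 32.5 CPM in experimental libraries, with overlap (0.22 ± 0.94, limma voom adjusted p = 0.882). In its flank 3 of 6 were lower, namely 69 to 85, 69 to 85 with C85A and 69 to 107 (−2.58, −3.52 and −3.09), while 69 to 86 was not called. The fragment 69 to 107 stood at 27.1, 41.6 and 25.2 CPM in control and 1.73, 4.82 and 4.21 CPM in experimental libraries, without overlap (limma voom adjusted p = 0.0124). mt-Leu-TAA 32 to 71 with T71A was the other member lower (−4.09, adjusted p = 0.000989). These were chosen for naming after their values were seen.
mt-Phe-GAA 55 to 70: aatcccataaacaCCA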

How the data were processed

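Small RNA from frozen muscle was extracted with Trizol and sequenced on a NextSeq 500 after a NEBNext small RNA preparation, per the labels' protocols. The deposited table gives raw read counts of each distinct sequence per library for every tRNA it aligned to, mature (with CCA) or precursor (with flanks of 40 bases), with at most 1 mismatch, per the file headers and values. The aligner is not given in the sources used here. mm9 is named in the submitters' processing notes, although the libraries are labelled as rat. Text lines within the deposited table kept its columns from being treated as plain counts, so limma voom was used in place of a count model, as planned. For every sequence the deposited count equalled that in the library's own alignment file.

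Each sequence was counted once. A sequence entered when it had 15 counts in all and, in 3 libraries, a CPM that equals at least 10 counts in a library of median size. Libraries were scaled by trimmed mean of M values, separately for fragments and for class sums, so CPM of the 2 are not on 1 scale. Groups were compared with limma 3.58.1 voom in R 4.3.3 (Benjamini-Hochberg over all features, threshold 0.05), tested on simulated data, and shares with two-sided exact permutation tests. Positions entered the mismatch comparison with 30 reads in each group, leaving out 2 bases at read ends. The rule named the most abundant member of each tRNA and class, the 6 largest called rises and falls, and their counterparts with or without the mismatch, of at least 15 counts. Other named fragments, and A105C, were chosen after their values were seen. Members and lists were chosen with earlier results of these data known. Alternatives were other scalings, filters, spreads, mismatch and length limits, a replicate block and each library left out.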

Additional observations from a re-analysis of the deposited data

How the results depend on the processing

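The share of T74C kept its direction under every alternative run. With exact matches alone, which leave out T74C and added-base reads, the member share differed by 0.101 percentage points, the flank share by 13.3, the shares of mt-Phe-GAA, mt-Val-TAC and mt-Leu-TAA by −3.12, 7.21 and −4.09, and the mt-Val-TAC 3′ flank starting at 69 by 75.4, all against their direction with mismatches. The mt-Phe-GAA share differed by −0.782 with each sequence counted once and ranged from −0.265 to 0.837 with 1 library left out, and the mt-Phe-GAA CCA share from −4.68 to 2.42. Members higher were 117 and lower 151 with no filter, lower 4 with each fragment's own spread and lower 12 with exact matches alone. Leaving out 1 library gave 25 to 42 members lower. The called class sum fell to 0 with no filter, with its own spread, and without control or experimental replicate 2 (range 0 to 1).

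Libraries with the same replicate number did not deviate alike (correlations of same-numbered deviations −0.310, −0.0573 and 0.136, and of different-numbered ones −0.417 to 0.378). With 3 libraries a group this cannot exclude that they were paired. With the number as a replicate block, 10 members were higher and 30 lower, and 1 class sum was lower. Uncalled values whose sign turned were mt-Phe-GAA 55 to 70 (−0.08 with library totals, −0.01 with the stricter filter, −0.34 to 0.63 with 1 library left out), 69 to 86 with C86T (−0.37 to 1.14 with 1 left out) and 5 of the 9 class sums. With 1 library left out these ran from −0.28 to 0.81 for mt-Leu-TAA mature, −0.22 to 0.90 for mt-Phe-GAA mature, −0.31 to 0.89 for mt-Val-TAC 5′ flank, −0.88 to 0.13 for its 5′ junction and −0.50 to 0.56 for its mature reads. Library totals gave −0.26, −0.10 and −0.32 for mt-Leu-TAA mature, mt-Phe-GAA mature and the mt-Val-TAC 5′ flank, and no filter 0.03 for mt-Val-TAC mature.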
